A study of Homo sapiens with 12 samples.

Results

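The response of T98-G cells to the oxygen level of the incubator was examined while the arginine methyltransferase PRMT5 was inhibited. The 6 libraries of cells given onametostat were taken by the column labels of the deposited count table, 3 labelled hypoxia and 3 labelled normoxia, out of 12 libraries in the series. All 14698 genes of the table were compared between them.

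T98-G is an established human glioblastoma line. Onametostat, a PRMT5 inhibitor, was given at 1 µM during 48 h in hypoxia (1% oxygen, 3 libraries) or in normoxia (20% oxygen, 3 libraries). The reference treatment was 0.1% DMSO for the same time, again in hypoxia (3 libraries) and in normoxia (3 libraries), and the labels do not give the DMSO content of the onametostat wells. Messenger RNA was sequenced from lysates of these adherent cultures, and the labels number the 3 libraries of a group as experiments in this 1 line, without saying what the groups of an experiment shared.

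Cells sense oxygen through prolyl hydroxylases (the EGLN enzymes), which need oxygen to hydroxylate the alpha subunits of the hypoxia-inducible factors (HIF) and so mark them for destruction by the VHL ubiquitin ligase. When oxygen falls, HIF-1 and HIF-2 persist, bind a short motif in DNA and raise the transcription of genes for glucose uptake, glycolysis, pH control, vessel growth and the oxygen sensors themselves. PRMT5, working in the methylosome complex with WDR77, places symmetric dimethylarginine on spliceosomal Sm proteins and histones.

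Libraries of onametostat in hypoxia differed widely in depth, with total counts of 21049160 (library 1), 7641280 (library 2) and 403279 (library 3), against 18154073 to 42559624 in the 3 onametostat libraries in normoxia and 22322055 to 45977729 in the 6 DMSO libraries. A single count in library 3 was worth 2.69 CPM (counts relative to the library size, after scaling with TMM factors), the limit that a count of 0 allows was 8.07 CPM, and 2978 genes had no count there. In addition, 53 genes stood far above their level in all other libraries and took 10.9% of its counts (0.45% to 0.49% elsewhere). Results are therefore given from a fit without library 3 (11 libraries) and from the fit of 12 libraries, and n is 2 and 3 libraries of onametostat in hypoxia in these fits, against 3 in normoxia. Values are TMM-scaled CPM, which do not account for gene length, so that levels are compared between libraries and not between genes. The p-values measure the spread between these libraries only.

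Of 30 markers of the cell types listed for this line and for cells that could be mixed with it, 11 were measured. The 4 glial and glioblastoma markers summed to 3166, 3396 and 3008 CPM in onametostat libraries in hypoxia, against 3305, 3392 and 3311 CPM in normoxia, and none of them passed the test. CD44 and VIM made up most of each sum, at 1825 and 1330 CPM in hypoxia library 1. OLIG2 was at a low level (0.916, 0.797 and 2.69 CPM in hypoxia, against 1.33, 1.75 and 1.44 CPM in normoxia). GFAP, NES, SOX2, S100B and CHI3L1 were not measured, so the sums say little of glial identity. No immune marker (0 of 5) was measured. The only measured epithelial marker, KRT18, was higher in the hypoxia-labelled libraries (159, 150.0 and 137 CPM, against 104, 98.3 and 101 CPM in normoxia), the mural cell marker PDGFRB was also higher (344, 311 and 317 CPM in hypoxia, against 274, 265 and 274 CPM in normoxia), and the endothelial marker VWF was lower in libraries 1 and 2 (0.627, 0.93 and 2.69 CPM in hypoxia, against 1.83, 1.68 and 1.9 CPM in normoxia, library 3 holding 1 count). ACTA2, smooth muscle actin, the other measured marker listed with PDGFRB, lay on the other side at a low level (0.675, 0.664 and 0 CPM in hypoxia, against 1.49, 1.28 and 1.16 CPM in normoxia), and its log2 fold change of -0.95 without library 3 (adjusted p = 0.112) and -0.96 with it (adjusted p = 0.116) did not pass the test. None of the 3 measured neuronal markers passed it either. The part of these markers in the results was not tested, and in bulk RNA fewer cells of a type and less RNA per cell cannot be told apart.

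Across all genes, with an adjusted p under 0.05 by edgeR's quasi-likelihood test, 1265 genes (8.61% of those tested) were higher and 1020 (6.94%) were lower in the hypoxia-labelled onametostat libraries without library 3, and 1130 (7.69%) and 906 (6.16%) with it. In the DMSO libraries, 2402 genes (16.3%) were higher and 2411 (16.4%) lower in hypoxia in the fit without library 3, and 2073 (14.1%) and 2036 (13.9%) in the fit with it. The response with onametostat was then set against the response with DMSO in a test of the difference between them. Here 97 genes (0.660%) had a more positive response with onametostat and 86 (0.585%) a more negative one without library 3, and 33 (0.225%) and 40 (0.272%) with it. Of the genes called with onametostat without library 3, 886 of 1265 higher and 668 of 1020 lower genes were also called in the same direction with DMSO, and 11 and 8 in the opposite direction. The median log2 fold change over all genes with onametostat was -0.00090 without library 3 and 0.00031 with it.

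The oxygen labels were checked on genes known as HIF targets in human cells, 43 of 44 listed genes being measured. With onametostat, 1 of the 43 was higher and 16 were lower in the hypoxia-labelled libraries in both fits, and the median log2 fold change was -0.19 in both. Over all genes, 8.61% were higher and 6.94% lower with onametostat without library 3 (7.69% and 6.16% with it). With DMSO these shares were 16.3% and 16.4% (14.1% and 13.9%). The counts of each list below are to be read beside these shares. The sum of the 43 genes was 6359, 6609 and 6414 CPM in hypoxia, against 6795, 7056 and 6660 CPM in normoxia, so that all hypoxia-labelled libraries lay below all normoxia-labelled ones. With DMSO, 14 of the 43 were higher in hypoxia in both fits, and 6 were lower without library 3 (4 with it), with a median of 0.06 in both fits. The genes with onametostat thus moved mostly against the direction that the label leads one to look for. The check therefore did not bear out the oxygen labels of the onametostat libraries, and a swap of labels was not tested. Directions are given here by label, as higher or lower in the libraries labelled hypoxia, and the words hypoxia and normoxia below refer to the labels.

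Promoter sequences are shown for 5 HIF target genes on which the comparison turns: PPP1R3C and DEPP1, whose responses differed most between the treatments in this list, PLIN2 and LOX, which were lower with onametostat whichever library was left out, and CA9, the customary marker of low oxygen. Each runs 5′ to 3′ on the strand of the gene, from 250 bases before to 50 bases after the RefSeq start in GRCh38.p14 (300 bases). Capitals mark the core of the HIF motif, ACGTG or GCGTG on either strand, so that CACGT and CACGC are marked as well, and a CACGTG counts on both strands. The positions are chr10:91633022-91633321 (minus strand) for PPP1R3C, chr5:122078210-122078509 (minus strand) for LOX, chr9:19127443-19127742 (minus strand) for PLIN2, chr9:35673678-35673977 (plus strand) for CA9 and chr10:44978760-44979059 (minus strand) for DEPP1.
PPP1R3C: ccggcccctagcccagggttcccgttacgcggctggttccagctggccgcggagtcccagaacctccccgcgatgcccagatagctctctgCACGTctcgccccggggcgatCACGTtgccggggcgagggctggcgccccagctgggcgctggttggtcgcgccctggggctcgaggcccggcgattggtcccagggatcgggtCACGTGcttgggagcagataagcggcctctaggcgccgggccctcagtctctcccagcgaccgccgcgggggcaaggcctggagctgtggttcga
LOX: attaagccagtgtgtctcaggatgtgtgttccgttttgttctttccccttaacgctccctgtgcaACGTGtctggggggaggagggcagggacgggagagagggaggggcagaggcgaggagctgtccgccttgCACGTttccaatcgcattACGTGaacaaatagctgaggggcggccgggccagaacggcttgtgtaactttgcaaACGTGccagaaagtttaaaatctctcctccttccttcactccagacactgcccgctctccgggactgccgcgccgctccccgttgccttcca
PLIN2: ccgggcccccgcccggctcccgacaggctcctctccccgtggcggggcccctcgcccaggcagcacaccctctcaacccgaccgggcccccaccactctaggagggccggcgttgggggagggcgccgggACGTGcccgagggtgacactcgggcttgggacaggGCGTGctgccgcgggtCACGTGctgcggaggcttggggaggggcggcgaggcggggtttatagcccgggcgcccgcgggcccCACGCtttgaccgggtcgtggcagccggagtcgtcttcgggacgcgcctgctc
CA9: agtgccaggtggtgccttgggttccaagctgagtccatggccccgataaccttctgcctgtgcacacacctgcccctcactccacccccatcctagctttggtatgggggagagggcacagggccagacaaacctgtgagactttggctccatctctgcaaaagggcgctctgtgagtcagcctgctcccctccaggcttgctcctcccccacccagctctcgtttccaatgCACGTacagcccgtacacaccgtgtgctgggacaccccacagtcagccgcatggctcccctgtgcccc
DEPP1: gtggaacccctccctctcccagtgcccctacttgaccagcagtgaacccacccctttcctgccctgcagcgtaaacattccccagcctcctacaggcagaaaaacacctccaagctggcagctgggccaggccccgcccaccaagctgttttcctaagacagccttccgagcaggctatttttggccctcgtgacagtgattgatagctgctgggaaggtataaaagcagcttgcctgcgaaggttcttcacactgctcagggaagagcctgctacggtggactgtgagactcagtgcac

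ACGTG was found 4 times in the promoter of PPP1R3C, 4 times in LOX, 3 times in PLIN2 and 1 time in CA9, GCGTG was found 2 times in PLIN2, and DEPP1 held neither in this window. Promoters were matched for 35 of the 43 HIF target genes, and 29 of them (82.9%) held ACGTG or GCGTG, against 63.3% of the promoters of all genes tested (6748 of 10656). ACGTG alone was present in 60% and 26.7%, and GCGTG alone in 54.3% and 50.9%. Among HIF target genes that were lower with onametostat without library 3, 10 of 13 matched promoters (76.9%) held either form, and among those with a more negative response than with DMSO, 5 of 8 (62.5%). A match describes letters in a window and does not locate a binding site.

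**Figure D1:**
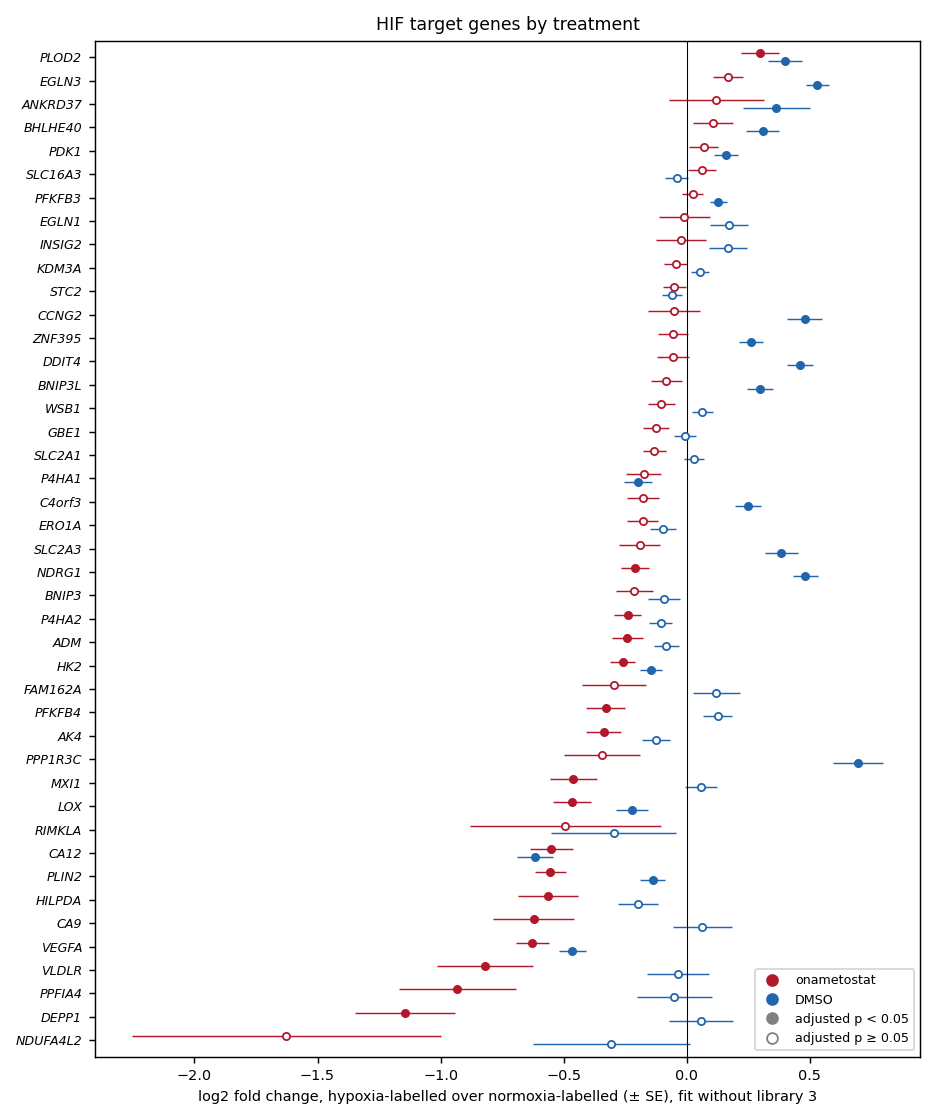
Log2 fold change (hypoxia-labelled over normoxia-labelled libraries, x axis) of the 43 measured HIF target genes with onametostat (red) and DMSO (blue), from the fit without library 3, with bars of ± 1 SE; filled points passed an adjusted p under 0.05. Of the 43 genes, 36 lie below 0 with onametostat and 19 with DMSO.

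VEGFA, CA12, CA9 and ADM were among the 16 members of the list called lower in the hypoxia-labelled onametostat libraries, and the calls of CA9 and ADM were lost without library 1. VEGFA (ENSG00000112715), the main growth factor for endothelial cells, was at 48.8, 55.1 and 45.7 CPM in hypoxia (libraries 1, 2 and 3), against 81.9, 76.7 and 78.4 CPM in normoxia. The groups did not overlap, and the log2 fold change was -0.63 ± 0.067 (SE, adjusted p = 2.98e-06) without library 3 and -0.62 ± 0.067 (adjusted p = 2.11e-05) with it. VEGFA was lower in hypoxia with DMSO too, with a log2 fold change of -0.47 ± 0.054 (SE, adjusted p = 1.56e-06), and the difference between the treatments did not pass the test (adjusted p = 0.386). CA12 (ENSG00000074410), a carbonic anhydrase of the cell surface that helps to export acid, had 115, 140.4 and 105 CPM in hypoxia, against 178, 193 and 179 CPM in normoxia, a log2 fold change of -0.55 ± 0.088 (SE, adjusted p = 0.000203) without library 3 and -0.55 ± 0.093 (adjusted p = 0.000935) with it. Its change with DMSO was of like size at -0.62.

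CA9 (ENSG00000107159), the related carbonic anhydrase whose promoter is shown above, reached 9.84, 13.5 and 5.38 CPM in hypoxia and 16.6, 17.8 and 16 CPM in normoxia with onametostat, so that all hypoxia-labelled libraries lay below the normoxia-labelled ones. Its log2 fold change was -0.62 ± 0.16 (SE, adjusted p = 0.0124) without library 3 and -0.62 ± 0.17 (adjusted p = 0.0225) with it. Library 3 held 2 counts of it. With DMSO the CA9 levels of 11.6, 15 and 9.58 CPM in hypoxia and 12.2, 11 and 11.7 CPM in normoxia overlapped, and the difference between the treatments (-0.69, adjusted p = 0.104) was not called. Without library 1 the fold change of CA9 was -0.37 (adjusted p = 0.419), which did not pass the test. ADM, adrenomedullin, a peptide that widens vessels, was at 102, 116 and 113 CPM in hypoxia, against 128, 129.7 and 122 CPM in normoxia, and its log2 fold change was -0.24 ± 0.065 (SE, adjusted p = 0.0138) without library 3 and -0.22 ± 0.064 (adjusted p = 0.028) with it. Its call was also lost without library 1 (adjusted p = 0.35).

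PLIN2, HILPDA and VLDLR, which act on stored or imported lipid, were likewise called lower. PLIN2 (ENSG00000147872), which coats lipid droplets, had 35.4, 33.6 and 43 CPM in hypoxia, against 49.8, 51.2 and 51.5 CPM in normoxia, and the groups were well apart. The log2 fold change was -0.55 ± 0.062 (SE, adjusted p = 4.17e-06) without library 3 and -0.54 ± 0.065 (adjusted p = 5.83e-05) with it. With DMSO, PLIN2 was at 27.5, 28.2 and 28.7 CPM in hypoxia and 32.9, 29.6 and 31.1 CPM in normoxia, a change of -0.14 ± 0.050 (SE, adjusted p = 0.0381), and the responses differed by -0.42 ± 0.079 (SE, adjusted p = 0.0153) without library 3 and -0.40 ± 0.085 (adjusted p = 0.046) with it, more negative with onametostat. HILPDA, a small droplet protein that inhibits lipolysis, was at 10.9, 10.2 and 16.1 CPM in hypoxia and 14.7, 17.1 and 14.9 CPM in normoxia, where library 3 (6 counts) lay within the normoxia range. Its log2 fold change was -0.56 ± 0.12 (SE, adjusted p = 0.00355) without library 3 and -0.54 ± 0.12 (adjusted p = 0.00762) with it. VLDLR, a lipoprotein receptor, was at 3.76, 4.52 and 10.8 CPM in hypoxia and 6.42, 8.19 and 5.85 CPM in normoxia, again with library 3 (4 counts) above the rest, and its log2 fold change was -0.82 ± 0.19 (SE, adjusted p = 0.00641) without library 3 and -0.77 ± 0.20 (adjusted p = 0.0173) with it. Without library 1, the log2 fold changes of HILPDA and VLDLR were -0.57 (adjusted p = 0.102) and -0.53 (adjusted p = 0.376), and neither was called.

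Of the members that act on collagen, LOX and P4HA2 were called lower and PLOD2 higher. LOX (ENSG00000113083), which cross-links collagen and elastin, was at 131, 141 and 139.9 CPM in hypoxia, against 184, 197 and 177 CPM in normoxia, with a log2 fold change of -0.47 ± 0.078 (SE, adjusted p = 0.00031) without library 3 and -0.45 ± 0.078 (adjusted p = 0.00119) with it. P4HA2, a subunit of the collagen prolyl hydroxylase, was also lower, at 221, 249 and 237 CPM in hypoxia, against 274, 282 and 269 CPM in normoxia, a log2 fold change of -0.24 ± 0.055 (SE, adjusted p = 0.00468) without library 3 and -0.23 ± 0.056 (adjusted p = 0.013) with it. PLOD2 (ENSG00000152952), the lysyl hydroxylase that prepares collagen for cross-linking, was the only member of the list called higher. It had 1403, 1202 and 1329 CPM in hypoxia, against 1067, 1059 and 1051 CPM in normoxia, a log2 fold change of 0.30 ± 0.077 (SE, adjusted p = 0.0113) without library 3 and 0.31 ± 0.077 (adjusted p = 0.0138) with it, and it rose with DMSO as well, by 0.40 on the log2 scale. Without library 1 the values of P4HA2 and PLOD2 were -0.16 (adjusted p = 0.166) and 0.25 (adjusted p = 0.111).

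HK2, PFKFB4 and AK4, enzymes of sugar and energy metabolism, were called lower in hypoxia. HK2 (ENSG00000159399), the hexokinase that starts glycolysis in many tumours, was at 303, 333 and 250.2 CPM in hypoxia, against 376, 381 and 377 CPM in normoxia, a log2 fold change of -0.26 ± 0.051 (SE, adjusted p = 0.00151) without library 3 and -0.31 ± 0.067 (adjusted p = 0.00572) with it. PFKFB4, which sets the level of fructose 2,6-bisphosphate, was at 31.9, 36.4 and 24.2 CPM in hypoxia, against 42.8, 41.7 and 41.6 CPM in normoxia, and changed by -0.33 ± 0.078 (SE, adjusted p = 0.00627) without library 3 and -0.33 ± 0.081 (adjusted p = 0.0121) with it. AK4, a mitochondrial adenylate kinase, was at 58.5, 68 and 59.2 CPM in hypoxia, against 74.8, 80.9 and 78.1 CPM in normoxia, and changed by -0.34 ± 0.071 (SE, adjusted p = 0.00272) without library 3 and -0.33 ± 0.070 (adjusted p = 0.00552) with it. The glucose transporters SLC2A1 and SLC2A3 were not called, SLC2A3 being at 24.6, 27.9 and 18.8 CPM in hypoxia and 30.04, 30.9 and 26.5 CPM in normoxia (log2 fold change -0.19 without and -0.19 with library 3). Among 18 glycolysis enzymes, 2 were higher and 2 lower without library 3 (1 and 2 with it), with a median of 0.03 (0.01). These counts stood beside 8.61% of all genes higher and 6.94% lower without library 3. PKM, pyruvate kinase, was higher by 0.22 on the log2 scale, at 5957, 5898 and 5962 CPM in hypoxia, against 5033, 5230.4 and 4966 CPM in normoxia. ENO2, the neuronal enolase, was at 35.8, 39.5 and 56.5 CPM in hypoxia, against 56, 52.9 and 51.6 CPM in normoxia, with library 3 above the normoxia range, and its log2 fold change was -0.53 without library 3 and -0.50 with it.

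PPP1R3C (ENSG00000119938), a glycogen-targeting subunit of protein phosphatase 1, showed opposite signs in the 2 treatments. With onametostat it was at 6.61, 9.43 and 5.38 CPM in hypoxia and 9.79, 9.82 and 8.68 CPM in normoxia, groups that overlapped, and its log2 fold change was -0.34 ± 0.15 (SE, adjusted p = 0.136) without library 3 and -0.34 ± 0.15 (adjusted p = 0.153) with it. With DMSO it was at 13.4, 15.6 and 12.3 CPM in hypoxia, against 8.4, 9.19 and 7.73 CPM in normoxia, a rise of 0.70 ± 0.10 (SE, adjusted p = 2.4e-05). The difference between the responses was -1.04 ± 0.18 (SE, adjusted p = 0.00859) without library 3 and -1.03 ± 0.18 (adjusted p = 0.026) with it. Of 18 glycogen enzymes and regulators, 2 were higher and 2 lower with onametostat without library 3 (1 and 1 with it), near the shares over all genes (8.61% and 6.94% without library 3). PPP1R3C was the 1 member with a called difference.

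NDRG1 (ENSG00000104419), a stress-induced protein that serves as a common marker of the HIF response, had the strongest evidence of a differing response in the list. With onametostat it was at 609.6, 653 and 589 CPM in hypoxia, against 723, 783 and 677 CPM in normoxia, a log2 fold change of -0.21 ± 0.057 (SE, adjusted p = 0.0152) without library 3 and -0.23 ± 0.058 (adjusted p = 0.0139) with it. With DMSO it was at 920.1, 920.3 and 834 CPM in hypoxia, against 619, 649.6 and 646 CPM in normoxia, a log2 fold change of 0.48 ± 0.050 (SE, adjusted p = 3.67e-07). All hypoxia-labelled libraries therefore lay below the normoxia-labelled ones with onametostat and above them with DMSO, and the responses differed by -0.69 ± 0.076 (SE, adjusted p = 0.000146) without library 3 and -0.71 ± 0.081 (adjusted p = 0.00141) with it. This difference was the 1 called in the HIF list also without library 1 (-0.69, adjusted p = 0.00806) and without libraries 1 and 3 (-0.64, adjusted p = 0.00951), where library 2 alone stood for onametostat in hypoxia and was assumed to vary like the other groups. The fall of NDRG1 with onametostat by itself was not called without library 1, at -0.21 (adjusted p = 0.0877).

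DEPP1 (ENSG00000165507), a regulator of autophagy, fell most among the called members of the list. It was at 2.8, 4.38 and 0 CPM in hypoxia, against 7.74, 7.6 and 6.17 CPM in normoxia, with no count in library 3, and the log2 fold change was -1.15 ± 0.20 (SE, adjusted p = 0.000549) without library 3 and -1.16 ± 0.21 (adjusted p = 0.00169) with it. With DMSO its levels of 5.93, 6.84 and 4.91 CPM in hypoxia and 6.05, 5.55 and 5.42 CPM in normoxia overlapped, and the responses differed by -1.20 ± 0.24 (SE, adjusted p = 0.0182) without library 3 and -1.22 ± 0.25 (adjusted p = 0.0413) with it. Without library 1 the log2 fold change of DEPP1 with onametostat was -0.79 (adjusted p = 0.16). MXI1, an antagonist of MYC, was at 13.7, 13.2 and 8.07 CPM in hypoxia, against 19.1, 19.2 and 17 CPM in normoxia, and fell by 0.46 on the log2 scale without library 3 and by 0.47 with it. PPFIA4, a liprin scaffold protein, was at 3.04, 6.11 and 2.69 CPM in hypoxia, against 8.02, 7.55 and 7.05 CPM in normoxia, a log2 fold change of -0.93 ± 0.24 (SE, adjusted p = 0.0105) without library 3 and -0.93 ± 0.25 (adjusted p = 0.0185) with it, and was not called without library 1 (adjusted p = 0.599).

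The 26 members of the list without a call with onametostat ranged, in the fit without library 3, from -1.63 for NDUFA4L2, a respiratory chain subunit variant, to 0.17 for EGLN3, and 20 of them lay below 0. NDUFA4L2 was at a low level throughout (0.289, 0 and 2.69 CPM in hypoxia and 0.498, 0.686 and 0.742 CPM in normoxia), with an adjusted p of 0.0848. PDK1, BHLHE40, ANKRD37 and PFKFB3, which rose with DMSO, were among those not called with onametostat.

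**Figure D2:**
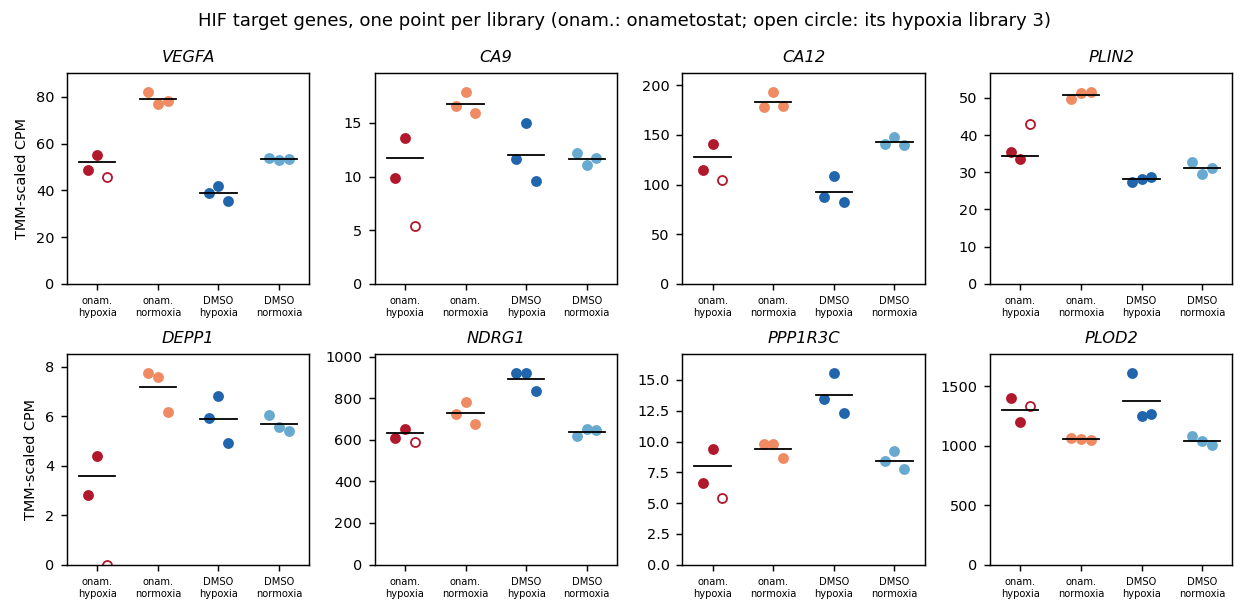
TMM-scaled CPM (y axis, from 0) of 8 HIF target genes in each of the 12 libraries, by treatment and oxygen label, with onametostat left of DMSO and hypoxia left of normoxia; lines are group means without library 3 of onametostat in hypoxia, which is the open circle. NDRG1 and PPP1R3C lie higher in hypoxia with DMSO and not with onametostat, where the NDRG1 values are 589 to 653 CPM in hypoxia and 677 to 783 CPM in normoxia.

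A further group of members of the list (EGLN3, DDIT4, BNIP3L, CCNG2, ZNF395, SLC2A3 and C4orf3, all of which were chosen after their values were seen) rose with DMSO and did not pass the test with onametostat. EGLN3, the oxygen sensor that is itself a HIF target, was at 47.3, 49.1 and 29.6 CPM in hypoxia and 42.5, 43.7 and 41.4 CPM in normoxia with onametostat, and at 73.3, 66.7 and 65.3 CPM in hypoxia and 46.5, 47 and 48.3 CPM in normoxia with DMSO. The responses of EGLN3 differed by -0.36 ± 0.077 (SE, adjusted p = 0.0215) without library 3 and -0.38 ± 0.086 (adjusted p = 0.0573) with it. DDIT4, an inhibitor of mTORC1, was at 102, 108 and 110.3 CPM in hypoxia and 107, 116 and 100.1 CPM in normoxia with onametostat, which overlapped, and at 112, 117 and 113 CPM in hypoxia and 77.3, 81.3 and 90.3 CPM in normoxia with DMSO. Its responses differed by -0.52 ± 0.084 (SE, adjusted p = 0.00487) without library 3 and -0.50 ± 0.084 (adjusted p = 0.026) with it. For BNIP3L, a mitophagy receptor, CCNG2, an atypical cyclin that restrains the cycle, and ZNF395, a zinc finger protein, the log2 fold changes with onametostat were -0.083, -0.051 and -0.056 without library 3, and those with DMSO were 0.30, 0.48 and 0.26. Differences of BNIP3L (-0.38), CCNG2 (-0.53) and ZNF395 (-0.32) were called without library 3 and not with it (adjusted p = 0.0761, 0.0807 and 0.0734). SLC2A3 (-0.58 without and -0.57 with library 3) and C4orf3 (-0.43 and -0.42), a regulator of calcium pumping, were called in both fits.

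Over the whole list, 13 of 43 HIF targets had a more negative response with onametostat without library 3 and 7 with it, and 0 had a more positive one, beside 0.585% and 0.272% of all genes called in that direction. The median difference was -0.21 in both fits, and 39 of the 43 differences were negative in each. With the experiment number as a replicate block these counts were 17 and 12. All of them depended on single libraries. Without library 1 of onametostat in hypoxia, 6 members (VEGFA, PLIN2, CA12, LOX, HK2 and MXI1) were lower with onametostat and 1 (NDRG1) differed, and without libraries 1 and 3, 3 members (VEGFA, PLIN2 and LOX) were lower. Without libraries 2 and 3, 20 were lower and 11 differed. In both of these fits 1 library was left of onametostat in hypoxia (n = 1), and the spread came from the other groups. In the fit of 12 libraries the count of 7 differences was 1 or 2 when library 1, library 1 or 2 of the onametostat normoxia group, any DMSO normoxia library, or DMSO hypoxia library 2 or 3 was left out. The median log2 fold change of the list with onametostat was -0.09 without library 1 and -0.07 without libraries 1 and 3, and it stayed below 0 in each fit that was run.

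Among the components of the oxygen-sensing pathway itself, 3 of 16 measured genes were higher and 2 lower with onametostat in both fits. EPAS1, which encodes HIF-2 alpha, was at 123, 119 and 113 CPM in hypoxia, against 166, 172 and 161 CPM in normoxia, a log2 fold change of -0.47 ± 0.055 (SE, adjusted p = 9.26e-06) without library 3 and -0.47 ± 0.054 (adjusted p = 4.52e-05) with it. HIF1A, which encodes HIF-1 alpha, was at 278, 267 and 258 CPM in hypoxia and 292, 300.2 and 278 CPM in normoxia, and its log2 fold change of -0.088 without library 3 (-0.10 with it) did not pass the test. CITED2, which competes with HIF for the coactivator p300, was at 102, 108 and 110.3 CPM in hypoxia, against 79.5, 77.2 and 74.3 CPM in normoxia, a log2 fold change of 0.44 ± 0.048 (SE, adjusted p = 3.67e-06) without library 3 and 0.45 ± 0.044 (adjusted p = 1.24e-05) with it. The coactivators themselves, CREBBP (0.32 without and 0.30 with library 3) and EP300 (0.37 and 0.33), were higher. ELOC, the elongin C subunit of the VHL ligase, was at 99.8, 101 and 94.2 CPM in hypoxia, against 115, 115 and 110.1 CPM in normoxia and fell by 0.18 in both fits. The levels here are of mRNA, whereas oxygen acts on the HIF alpha subunits mainly as proteins.

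Of 32 measured dioxygenases that use oxygen and 2-oxoglutarate, listed with lysine demethylases, 6 were higher and 1 lower without library 3 (5 and 1 with it). The lower one was P4HA2, which is also counted above as a HIF target. The higher ones included FTO, an RNA demethylase (0.22 without and 0.24 with library 3), and TET3, which oxidises methylcytosine (0.27 and 0.27). JMJD1C, a putative histone demethylase, was another (0.23 and 0.22). The shares over all genes were 8.61% higher and 6.94% lower without library 3 (7.69% and 6.16% with it). In the PRMT family and methylosome, 2 of 14 members were lower and 0 higher with onametostat in both fits, and 11 were lower with DMSO without library 3 (10 with it). PRMT5, the target of the compound, was at 75.1, 68.3 and 72.6 CPM in hypoxia, against 84.9, 89.6 and 87.9 CPM in normoxia, a log2 fold change of -0.28 ± 0.050 (SE, adjusted p = 0.00069) without library 3 and -0.28 ± 0.044 (adjusted p = 0.000558) with it, and CARM1, an asymmetric arginine methyltransferase, was lower (-0.23 without and -0.23 with library 3). These values describe the mRNA of PRMT5 and not the activity of the enzyme.

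Genes for ribosome assembly and DNA replication were lower in hypoxia with DMSO in most members, and with onametostat at about the share over all genes. That share was 6.94% lower with onametostat and 16.4% lower with DMSO without library 3 (6.16% and 13.9% with it). Of 65 nucleolar factors of ribosome biogenesis, 2 were higher and 5 lower with onametostat in both fits (median -0.03), while with DMSO 58 were lower and 1 higher without library 3 (54 and 0 with it, median -0.22). In the test of the difference, 23 of the 65 had a more positive response with onametostat without library 3 and 10 with it, beside 0.660% and 0.225% of all genes called in that direction. The nucleolar list was added after the values were seen, so these counts describe its members and do not test the list. NOLC1, a nucleolar chaperone, was at 281, 298 and 277 CPM in hypoxia and 280.2, 286 and 290.3 CPM in normoxia with onametostat, and at 218, 224 and 221 CPM in hypoxia, against 269, 266 and 259.9 CPM in normoxia, with DMSO. Its responses differed by 0.28 ± 0.052 (SE, adjusted p = 0.0134) without library 3 and 0.27 ± 0.057 (adjusted p = 0.0422) with it. DDX21, an RNA helicase of the nucleolus, was at 442, 422 and 447 CPM in hypoxia and 414, 412 and 437 CPM in normoxia with onametostat and at 311, 292 and 291 CPM in hypoxia and 368, 361 and 344 CPM in normoxia with DMSO, and its responses differed by 0.30 ± 0.058 (SE, adjusted p = 0.0153) without library 3 and 0.31 ± 0.065 (adjusted p = 0.0413) with it. The hypoxia and normoxia libraries of both genes overlapped with onametostat and did not overlap with DMSO.

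For NOP56, a core protein of box C/D snoRNPs, and NCL, nucleolin, the differences of 0.30 and 0.23 were called without library 3 only (adjusted p = 0.13 and 0.0984 with it). RRP9, which binds the U3 snoRNA, fell in both treatments, with a log2 fold change of -0.29 with onametostat (49.4, 52.9 and 45.7 CPM in hypoxia, against 65, 61.6 and 59 CPM in normoxia) and -0.58 with DMSO. The number of nucleolar factors with a called difference in the fit of 12 libraries was 0 when library 1, library 1 or 2 of the onametostat normoxia group, any DMSO normoxia library or DMSO hypoxia library 3 was left out, and 1 when DMSO hypoxia library 2 was left out. It was 3 without libraries 1 and 3, while the median difference lay between 0.16 and 0.23 in all fits run. Of 36 genes of DNA replication and the G1/S transition, 2 were higher and 3 lower with onametostat without library 3 (1 and 2 with it), 26 were lower with DMSO (20 with library 3), and 4 had a called difference without library 3 and 0 with it. CDT1, a licensing factor of replication origins, was one of those lower with onametostat, at 60.7, 68.8 and 59.2 CPM in hypoxia, against 76.3, 77.7 and 78 CPM in normoxia, a log2 fold change of -0.28 in both fits. Of 39 core spliceosome genes, 2 were higher and 4 lower with onametostat (1 and 2 with library 3), against 2 and 21 with DMSO (2 and 17).

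**Figure D3:**
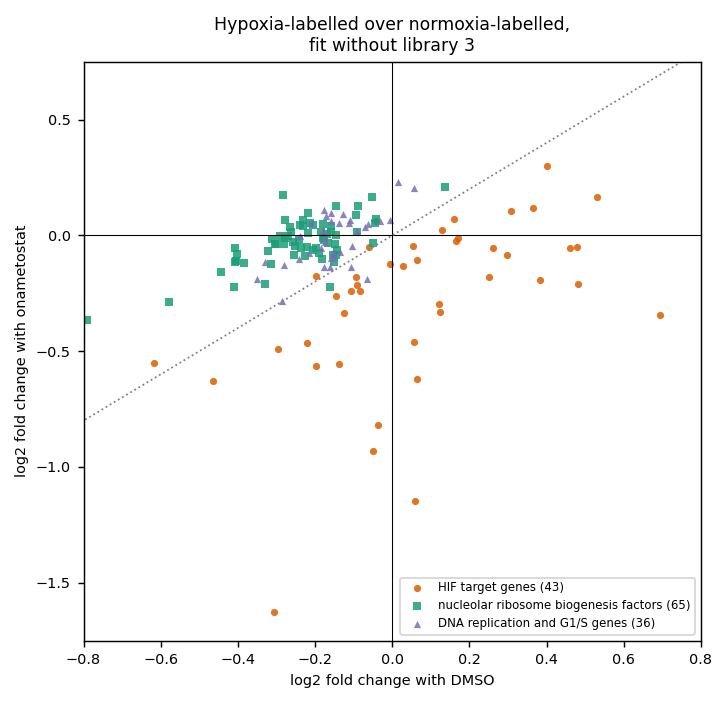
Log2 fold change of hypoxia-labelled over normoxia-labelled libraries with onametostat (y axis) against that with DMSO (x axis), from the fit without library 3, for 43 HIF target genes, 65 nucleolar factors and 36 DNA replication genes; the dotted line marks equal responses. Most HIF targets lie below the line (39 of 43), and the nucleolar factors lie left of 0 with DMSO (median -0.22) and near 0 with onametostat (median -0.03).

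Differentially expressed genes (DEGs, an adjusted p under 0.05 and a log2 fold change above 1 or below -1) numbered 51 higher (0.347% of genes) and 48 lower (0.327%) without library 3, and 61 (0.415%) and 46 (0.313%) with it, and 47 higher and 44 lower DEGs were shared by the fits. All 14 higher DEGs found only with library 3 were among the 53 genes in excess there. DESeq2 called 20 higher and 12 lower without library 3 and 15 and 3 with it, and voom with sample quality weights called 82 and 16. Of the DEGs shared by both fits, 32 of 47 higher and 11 of 44 lower ones were also called in the same direction with DMSO. Long noncoding RNAs made up 26 of the 46 lower DEGs (56.5%) and 10 of the 61 higher ones (16.4%) with library 3, and 26 of 48 (54.2%) and 9 of 51 (17.6%) without it, against 12.3% of all genes with a type. The median average log2 CPM was 0.33 for the lower DEGs with library 3, 0.61 for the higher ones and 4.41 for all genes.

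Most of the lower DEGs were lost without library 1. In its absence 25 genes were lower, of which 1 (ENSG00000281181, named after its values were seen) was among the 46, and 29 were higher, of which 23 were among the 61. That fit kept library 3, and the 23 included genes in excess there, among them RPL4P5, NUDC, ZBTB7A, SBF1 and PLXNB2. The 23 therefore do not show that the higher DEGs depended less on library 1 than the lower ones. Without libraries 1 and 3, when library 2 alone was left of that group (n = 1) and the spread came from the other groups, there were 22 lower and 9 higher DEGs, with 1 and 7 shared. The shared higher ones included S100A4, PSD4, RARRES1, PDGFRA, FRMD3 and SHOC1, and the shared lower one was ACKR3, of which PDGFRA and SHOC1 were chosen for naming after their values were seen.

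KIT, SELENOP and S100A4 were among the named higher DEGs. KIT (ENSG00000157404), the receptor tyrosine kinase for stem cell factor, was at 41, 32.4 and 51.1 CPM in hypoxia, against 17.1, 17.6 and 19.4 CPM in normoxia, a log2 fold change of 1.07 ± 0.11 (SE, adjusted p = 2.45e-06) without library 3 and 1.08 ± 0.11 (adjusted p = 2.02e-05) with it. Its ligand KITLG was lower, at 65.4, 65.1 and 48.4 CPM in hypoxia, against 80.8, 86.8 and 88.2 CPM in normoxia, a log2 fold change of -0.39 ± 0.058 (SE, adjusted p = 0.000113) without library 3 and -0.40 ± 0.059 (adjusted p = 0.000336) with it. SELENOP (ENSG00000250722), the secreted selenium carrier, was at 10.8, 10.5 and 16.1 CPM in hypoxia, against 3.82, 5.89 and 4.55 CPM in normoxia, a log2 fold change of 1.10 ± 0.18 (SE, adjusted p = 0.00031) without library 3 and 1.12 ± 0.19 (adjusted p = 0.000856) with it. S100A4 (ENSG00000196154), a calcium-binding protein linked with cell motility, was at 14.9, 12.9 and 8.07 CPM in hypoxia, against 5.86, 6.11 and 6.22 CPM in normoxia, a log2 fold change of 1.22 ± 0.15 (SE, adjusted p = 1.77e-05) without library 3 and 1.21 ± 0.16 (adjusted p = 0.000113) with it. All of these groups were separate, though S100A4 in library 3 rested on 3 counts (8.07 CPM), the limit that a count of 0 allows. KIT, S100A4 and SELENOP were also higher with DMSO, by 1.26, 1.12 and 1.55. Without library 1 the change of KIT was 0.90 (adjusted p = 0.00462), under the fold threshold.

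RARRES1 (ENSG00000118849), a retinoic acid responsive membrane protein, was at 8.39, 8.9 and 16.1 CPM in hypoxia, against 3.43, 3.98 and 3.43 CPM in normoxia, a log2 fold change of 1.21 ± 0.13 (SE, adjusted p = 3.84e-06) without library 3 and 1.24 ± 0.13 (adjusted p = 2.02e-05) with it. In the retinoid list, 6 of 18 genes were higher and 1 lower without library 3 (5 and 1 with it), with a median of 0.18 in both fits, and 8 were higher and 1 lower with DMSO. CYP26B1, which degrades retinoic acid, was at 17, 12.5 and 13.5 CPM in hypoxia, against 7.08, 8.02 and 8.68 CPM in normoxia (0.96 without and 0.94 with library 3). ALDH1A3, which makes retinoic acid, was at 30.5, 30.7 and 26.9 CPM in hypoxia, against 21.7, 20.2 and 20.7 CPM in normoxia (0.56 and 0.55), and the receptor RARB was at 57.2, 53.1 and 35 CPM in hypoxia, against 40.5, 46.6 and 43.3 CPM in normoxia (0.34 and 0.33). Thus an enzyme of synthesis, an enzyme of breakdown and a receptor were all called higher, though RARB in library 3 (35 CPM) lay below the normoxia range. The calls of CYP26B1 and RARB were lost in some other fits, and that of ALDH1A3 was kept in all of them. Without library 1, 3 of the 18 genes were higher and 0 lower.

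Of 14 measured histone genes, 4 were higher and 1 lower without library 3 (5 and 0 with it), with a median of 0.16, and 1 was higher without library 1. H2BC12 was at 18.6, 17.4 and 18.8 CPM in hypoxia, against 11.1, 11 and 10.5 CPM in normoxia (0.74 in both fits). Since reads of near-identical histone genes can be split between copies, the values of single H2B genes are uncertain.

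Other named higher DEGs were FRMD3 (22.3, 17.5 and 18.8 CPM in hypoxia, against 7.74, 8 and 8.21 CPM in normoxia), a FERM domain protein, FAM117B (36.9, 29.6 and 32.3 CPM in hypoxia, against 15.5, 14.7 and 14.5 CPM in normoxia) and PSD4 (12.7, 10.5 and 18.8 CPM in hypoxia, against 4.81, 4.19 and 4.27 CPM in normoxia), an exchange factor for ARF6. Their log2 fold changes were 1.37, 1.20 and 1.45 without library 3 and 1.35, 1.19 and 1.47 with it. At lower levels, ANKFN1 had the largest log2 fold change of the named DEGs called in both fits (2.35 ± 0.32 (SE, adjusted p = 4.59e-05) without library 3 and 2.34 ± 0.33 (adjusted p = 0.000216) with it), at 4.68, 3.06 and 2.69 CPM in hypoxia, against 0.664, 0.994 and 0.603 CPM in normoxia. ADAMTS5, an aggrecan-cleaving protease, was at 2.94, 2.66 and 2.69 CPM in hypoxia, against 0.83, 1.3 and 0.742 CPM in normoxia (1.45), LMF1, a lipase maturation factor, at 2.46, 1.73 and 0 CPM in hypoxia, against 0.83, 0.947 and 0.928 CPM in normoxia (1.29), and NOG, the BMP antagonist noggin, at 3.47, 2.26 and 0 CPM in hypoxia, against 1.38, 1.63 and 1.25 CPM in normoxia (1.08). These 4 rested on 0 or 1 count in library 3, and none of them was called without library 1.

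**Figure D4:**
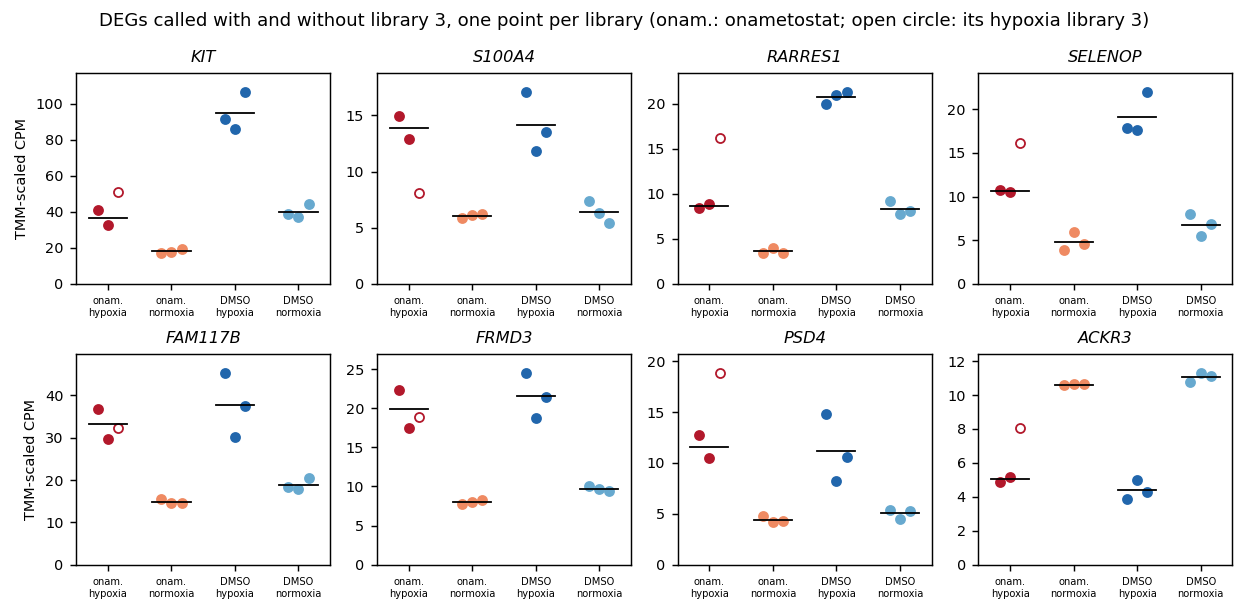
TMM-scaled CPM (y axis, from 0) of 8 DEGs called with and without library 3, in each of the 12 libraries, with onametostat left of DMSO and hypoxia left of normoxia; lines are group means without library 3 of onametostat in hypoxia, which is the open circle. FRMD3 is at 17.5 to 22.3 CPM in the onametostat libraries in hypoxia and 7.74 to 8.21 CPM in normoxia.

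Among the named lower DEGs, ACKR3 (ENSG00000144476), an atypical chemokine receptor for CXCL12, was at 4.87, 5.18 and 8.07 CPM in hypoxia, against 10.6, 10.6 and 10.6 CPM in normoxia, a log2 fold change of -1.10 ± 0.13 (SE, adjusted p = 1.05e-05) without library 3 and -1.08 ± 0.12 (adjusted p = 3.82e-05) with it. It was lower with DMSO too (-1.32). Without library 1 its log2 fold change was -0.99 (adjusted p = 0.00842), past the p threshold and not the fold threshold. EMILIN2, a matrix glycoprotein, was at 1.93, 3.06 and 0 CPM in hypoxia, against 6.36, 5.37 and 4.87 CPM in normoxia (-1.28) and ZP1, an egg coat protein, at 1.54, 1.86 and 0 CPM in hypoxia, against 3.87, 3.86 and 3.43 CPM in normoxia (-1.19), and neither was called without library 1.

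The remaining named lower DEGs were noncoding or unclassified transcripts of low level. ZNF778-DT was at 0.482, 1.2 and 2.69 CPM in hypoxia and 1.77, 2.15 and 2.13 CPM in normoxia (-1.59 without and -1.52 with library 3), ZEB1-AS1 at 0.916, 1.33 and 0 CPM in hypoxia, against 1.99, 2.53 and 2.41 CPM in normoxia (-1.19 and -1.21), and MTA1-DT at 0.772, 0.399 and 0 CPM in hypoxia, against 1.27, 1.4 and 1.3 CPM in normoxia (-1.002 and -1.02). Reads were counted under defaults that do not use strand, so reads of an antisense gene and of its partner cannot be told apart. Transcripts known only by ID, ENSG00000249199 (-1.12), ENSG00000280187 (-1.09) and ENSG00000272405 (-1.01), were also lower without library 3. None of these 6 was called without library 1.

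With onametostat, extracellular matrix genes held the most called members of the 27 lists. Of 55 collagens, integrins and remodelling enzymes, 21 were higher in both fits, and 9 were lower without library 3 (8 with it), with a median of 0.09 (0.08). TNC, tenascin C, an adhesion-modulating glycoprotein, was at 212, 207 and 180.3 CPM in hypoxia, against 136, 130.3 and 131 CPM in normoxia, a log2 fold change of 0.66 ± 0.055 (SE, adjusted p = 1.31e-07) without library 3 and 0.64 ± 0.060 (adjusted p = 7.98e-06) with it. COL12A1, a collagen of fibril surfaces, was at 739.8, 642 and 646 CPM in hypoxia, against 412, 441 and 441 CPM in normoxia, a log2 fold change of 0.68 ± 0.071 (SE, adjusted p = 2.45e-06) without library 3 and 0.66 ± 0.074 (adjusted p = 3.82e-05) with it. The fibrillar collagens COL1A2 (0.43 without and 0.41 with library 3) and COL5A2 (0.41 in both fits) were higher, while ITGB3, an integrin subunit, was lower, at 49.1, 50.3 and 43 CPM in hypoxia, against 78.4, 77.7 and 71.9 CPM in normoxia (-0.62 in both fits), as was the basement membrane collagen COL4A1 (-0.35 in both fits). With DMSO, 28 of the 55 were higher and 7 lower without library 3 (27 and 7 with it), with a median of 0.195 in both fits. The rise of this list was therefore not particular to onametostat. With onametostat and without library 1, 11 of the 55 were higher and 4 lower. Of the markers listed for fibroblasts and smooth muscle, PDGFRB was higher by 0.28 without library 3 and ACTA2 was at -0.95, which was not called, and the part of these markers in the matrix list was not tested.

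All called members of the lipid synthesis list rose. Of 33 genes of cholesterol and fatty acid synthesis, 13 were higher and 0 lower in both fits, with a median of 0.13 (0.14 with library 3), and 5 were higher without library 1. With DMSO, 9 were higher and 4 lower without library 3 (8 and 2 with it). LSS, lanosterol synthase, was at 119, 110.1 and 91.5 CPM in hypoxia, against 85.6, 85.4 and 82.1 CPM in normoxia, a log2 fold change of 0.45 ± 0.061 (SE, adjusted p = 3.89e-05) without library 3 and 0.43 ± 0.063 (adjusted p = 0.000348) with it. With DMSO it was at 144, 121 and 129 CPM in hypoxia and 122, 125 and 125 CPM in normoxia, which overlapped, and the responses differed by 0.37 ± 0.078 (SE, adjusted p = 0.0197) without library 3 and 0.35 ± 0.084 (adjusted p = 0.0734) with it. FADS2, a fatty acid desaturase, was at 166, 156 and 151 CPM in hypoxia, against 116, 132 and 111 CPM in normoxia (0.43 without and 0.42 with library 3). SQLE, squalene epoxidase, whose reaction uses molecular oxygen, was higher by 0.32 and 0.29.

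More antioxidant and stress genes were lower than higher in hypoxia. Among 28 NRF2 targets and antioxidant genes, 8 were lower in both fits and 4 higher without library 3 (3 with it), with a median of -0.06 (-0.03). HMOX1, haem oxygenase, which breaks haem down with oxygen, was at 104, 102 and 99.5 CPM in hypoxia, against 177, 172 and 177 CPM in normoxia, a log2 fold change of -0.77 ± 0.062 (SE, adjusted p = 9.09e-08) without library 3 and -0.77 ± 0.064 (adjusted p = 2.63e-06) with it, and it fell with DMSO as well (-1.05). PGD, an NADPH-forming enzyme of the pentose phosphate pathway, was at 809.9, 813 and 769 CPM in hypoxia, against 1014, 1112 and 1021 CPM in normoxia (-0.37 without and -0.39 with library 3). GCLC, which starts glutathione synthesis, was lower (-0.34 and -0.30), and AKR1C1, a NRF2-driven reductase, was higher, at 569, 386 and 506 CPM in hypoxia, against 288, 317 and 286 CPM in normoxia (0.70 and 0.71). With DMSO, 14 of the 28 were lower in both fits and 4 higher without library 3 (2 with it), with a median of -0.14 in both. With onametostat and without library 1, 6 of the 28 were lower and 2 higher.

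Of 33 genes of the unfolded protein and integrated stress responses, 7 were lower in both fits and 3 higher without library 3 (1 with it), and with DMSO 20 were lower and 0 higher (18 and 0 with library 3). MTHFD2, a mitochondrial folate enzyme, was at 141, 139 and 135 CPM in hypoxia, against 179, 171 and 177 CPM in normoxia (-0.32 and -0.33), and PSAT1, of serine synthesis, at 56.6, 58.8 and 67.3 CPM in hypoxia, against 71.1, 78.2 and 77.2 CPM in normoxia (-0.40 and -0.39). Without library 1, 2 were lower and 0 higher. For the 15 genes of the mitochondrial genome, 1 was lower with onametostat without library 3 and 3 with it (medians -0.28 and -0.39), against 14 and 12 with DMSO. MT-CYB, cytochrome b, was at 1209, 1151 and 837 CPM in hypoxia and 1709, 1211 and 1709 CPM in normoxia, where normoxia library 2 stood below its other libraries, and its log2 fold change was -0.39 ± 0.14 (SE, adjusted p = 0.0658) without library 3 and -0.51 ± 0.16 (adjusted p = 0.0378) with it. Nuclear respiratory chain subunits (2 of 58 higher and 1 lower, 1 and 1 with library 3) and cytosolic ribosomal proteins (1 of 76 higher and 0 lower, 2 and 1 with library 3) were called at shares under those of all genes.

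Signalling genes were called in both directions. Among 38 receptor tyrosine kinases and ligands, 7 were higher and 7 lower without library 3 (6 and 7 with it), with EPHA2, an ephrin receptor, at 383, 336 and 347 CPM in hypoxia, against 272, 260.1 and 267 CPM in normoxia (0.44 and 0.42). Of 39 genes of the TGF-beta and BMP pathway, 6 were higher and 4 lower (5 and 4 with library 3), beside 8.61% of all genes higher and 6.94% lower without library 3. INHBA, the activin A subunit, was at 13.2, 13.2 and 10.8 CPM in hypoxia, against 21.6, 22.4 and 24.3 CPM in normoxia, a log2 fold change of -0.79 ± 0.098 (SE, adjusted p = 1.59e-05) without library 3 and -0.79 ± 0.097 (adjusted p = 7.4e-05) with it. BAMBI, a decoy receptor that blocks TGF-beta signals, was higher, at 97.9, 90.6 and 108 CPM in hypoxia, against 55.3, 65.6 and 59.99 CPM in normoxia, and rose less than with DMSO (-0.50, adjusted p = 0.0231 without library 3 and 0.0599 with it). Without library 1, 2 genes of this pathway were higher and 1 lower.

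The other lists had calls in both directions, beside 8.61% of all genes higher and 6.94% lower without library 3 (7.69% and 6.16% with it). Among 37 genes of G2 and mitosis 6 were higher and 5 lower in both fits, and among 29 p53 targets and CDK inhibitors 4 were higher and 5 lower without library 3 (3 and 4 with it). Wnt, Notch and Hippo genes numbered 3 higher and 4 lower of 33 (2 and 4), solute carriers 6 and 3 of 21 (4 and 2), inflammatory and NF-kB genes 3 and 3 of 23 (2 and 2), interferon genes 2 and 2 of 32 in both fits, and selenoprotein genes 2 and 2 of 20 (4 and 2). The medians of the lists given here without one lay between -0.13 and 0.06 without library 3 and between -0.12 and 0.08 with it. The selenoprotein genes gained GPX4 with library 3, where its log2 fold change was 2.79, against 0.13 without it.

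**Figure D5:**
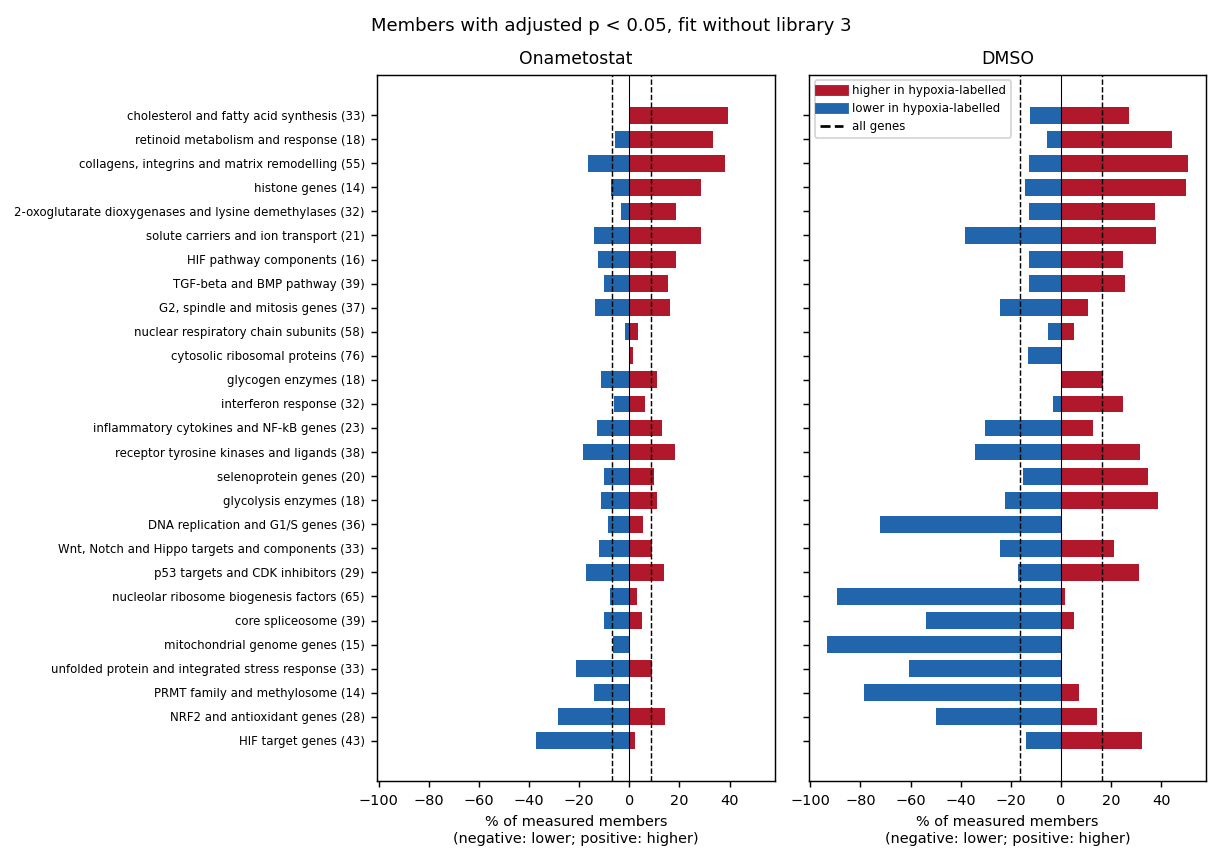
Share of measured members (x axis, %; number measured in brackets) with an adjusted p under 0.05 that were higher (red) or lower (blue) in hypoxia-labelled libraries, for 27 gene lists with onametostat (left) and DMSO (right), from the fit without library 3; dashed lines mark the shares over all genes. HIF target genes stand out to the left with onametostat (16 of 43 lower, 1 higher). Several lists lie far to the left with DMSO. Among them are the mitochondrial genome (14 of 15 lower), nucleolar (58 of 65), PRMT family (11 of 14) and DNA replication (26 of 36) lists.

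Calls that existed in 1 fit only followed library 3. RPL4P5, a ribosomal protein pseudogene, was at 1.88, 0.93 and 22603 CPM in hypoxia, against 2.66, 2.67 and 2.6 CPM in normoxia, and its log2 fold change was 11.44 with library 3 and -0.73 without it. NUDC, a dynein cofactor, was at 239, 251 and 5787 CPM in hypoxia, against 253, 258 and 261 CPM in normoxia, and its log2 fold change was 2.90 with library 3 and -0.077 without it. ZBTB7A, SBF1 and PLXNB2 were the other named genes of this kind. CDK5R2, an activator of CDK5, was called only without library 3, at 0.916, 1.2 and 2.69 CPM in hypoxia and 2.71, 1.8 and 2.04 CPM in normoxia (-1.08, adjusted p = 0.035, against 0.0524 with it).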

How the data were processed

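Messenger RNA of 12 libraries of T98-G cells was sequenced after a stranded library preparation. Per the study's methods, reads were trimmed with fastp, aligned with STAR and counted with featureCounts under its defaults, which ignore strand, and genes were filtered with filterByExpr of edgeR. The methods name GRCh38, whereas the submitters' processing notes name GRCh37 and STAR 2.7.10a, so positions are given only for RefSeq promoters. The authors deposited whole-number counts per gene for 14698 genes, without normalization despite the word normalized in the table's name. All 12 columns of counts were used, and columns of per-sample values not used numbered 0.

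Counts were scaled with TMM factors and fitted in edgeR 4.0.16 (R 4.3.3) with 1 coefficient for each of the 4 groups, and hypoxia was compared with normoxia within each treatment, as was the difference of these responses, by the quasi-likelihood test with Benjamini-Hochberg adjustment over all genes. Groups and library numbers came from the labels. Total counts were 403279 to 45977729 per library. DEGs were genes past an adjusted p of 0.05 whose log2 fold change was above 1 or below -1. Gene lists, and the comparison itself, were chosen with earlier results of these data known, and the nucleolar list was added after the values were seen. A limit of 3 counts was used for a count of 0, and it covers counting error only. The procedure was run on simulated data with larger fold changes, in genes of higher level, than many reported here. No genes in excess in library 3 were simulated, so the run does not measure error for such genes or for small changes. Alternatives were DESeq2 1.42.0, voom of limma 3.58.1, other scalings and filters, a replicate block and libraries left out.

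Genes were named by rule: up to 12 DEGs per direction called with and without library 3 (average log2 CPM of at least 1, no overlap of the remaining libraries), up to 5 per direction called in 1 fit only, up to 4 per list by p, genes the study names, PRMT5, WDR77, MTAP, HIF1A, EPAS1, CA9, VEGFA, and DEGs of the difference, of which some genes are not reported here. A further 33 genes were chosen after their values were seen: NDRG1, SLC2A3, DDIT4, EGLN3, MXI1, BNIP3L, CCNG2, PFKFB4, C4orf3, ZNF395, ADM, HILPDA, AK4, VLDLR, PPFIA4, PLOD2, NOP56, NOLC1, DDX21, NCL, KRT18, VWF, PDGFRB, AKR1C1, COL4A1, ELOC, GPX4, ITGB3, KITLG, PDGFRA, SHOC1, NDUFA4L2 and ACTA2.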

Additional observations from a re-analysis of the deposited data

Results flagged for a closer look

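The response to the oxygen label differed between the treatments, by edgeR's quasi-likelihood test of the difference, for 13 HIF target genes and 3 further named genes in the fit without library 3, and each of these responses was more negative with onametostat than with DMSO. All 16 responses came from 2 libraries of onametostat in hypoxia, and other processing changed many of these calls.

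Of the 3 further genes, DYNC1I1, a dynein intermediate chain, was at 0.193, 0.266 and 0 CPM in hypoxia, against 0.885, 0.781 and 0.603 CPM in normoxia, with onametostat, and its responses differed by -2.20 (adjusted p = 0.0437, and 0.0545 with library 3). PGK1P1, a processed pseudogene whose reads can be shared with its near-identical parent gene and is therefore uncertain, was at 0.531, 0.664 and 0 CPM in hypoxia and 1.16, 1.09 and 0.928 CPM in normoxia with onametostat, and at 0.959, 1.1 and 1.11 CPM in hypoxia and 0.609, 0.667 and 0.48 CPM in normoxia with DMSO. Its responses differed by -1.74 (adjusted p = 0.0363, and 0.0462 with library 3). CYRIA, a regulator of RAC1, had 2.41, 2.79 and 8.07 CPM in hypoxia and 5.25, 4.31 and 4.18 CPM in normoxia with onametostat, where library 3 rested on 3 counts, and its responses differed by -1.26 (adjusted p = 0.0207, and 0.06 with library 3).

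Among HIF target genes, the differences called with and without library 3 were -1.20 for DEPP1, -1.04 for PPP1R3C, -0.69 for NDRG1, -0.58 for SLC2A3, -0.52 for DDIT4, -0.43 for C4orf3 and -0.42 for PLIN2 in the fit without it. Differences called without library 3 but not with it were -0.53 for CCNG2, -0.52 for MXI1 (adjusted p = 0.0545 with library 3), -0.45 for PFKFB4 (adjusted p = 0.0573 with it), -0.38 for BNIP3L, -0.36 for EGLN3 and -0.32 for ZNF395. Of these 13 genes, PLIN2, MXI1, PFKFB4, NDRG1 and DEPP1 were lower with onametostat in their own test, and 8 were not called there.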

How the results depend on the processing

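All counts below are from fits of 12 libraries unless library 3 of onametostat in hypoxia is said to be left out. DEGs with onametostat numbered 61 higher and 46 lower. They were 15 and 3 by DESeq2, 20 and 12 by DESeq2 without library 3, 115 higher by the likelihood ratio test, 27 and 11 among genes with a mean log2 CPM of 1 or more, 36 and 26 in a fit of the compared groups alone, 16 lower by voom with quality weights, and 9 and 22 without libraries 1 and 3. By adjusted p alone, 1130 genes were higher and 906 lower, with 691 higher by DESeq2, 628 and 578 in the compared groups alone and 293 and 163 without libraries 1 and 3. The 16 lower HIF target genes became 3 without libraries 1 and 3. With DMSO, DEGs numbered 88 and 34, against 40 and 9 by DESeq2, 57 and 13 by DESeq2 without library 3, 28 and 5 among genes with a mean log2 CPM of 1 or more, and 2073 and 2036 by adjusted p alone, of which DESeq2 called 1375 higher.

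The difference of the responses gave 0 DEGs with a more positive and 3 with a more negative response (33 and 40 by adjusted p alone, and 0 and 3 again by the quasi-likelihood test with a replicate block). These were 6 and 14 by the likelihood ratio test, 2 and 1 by voom, and the 3 were 1 by DESeq2 with or without library 3, 5 by a robust fit, 6 without libraries 2 and 3, and 5 with RLE factors or library sizes alone without library 3. By adjusted p alone, the 33 were 77 by DESeq2, 161 by DESeq2 without library 3, 66 by the likelihood ratio test, 7 with library sizes alone, 125 by voom, 89 by a robust fit, 11 without libraries 1 and 3, 93 with RLE factors without library 3 and 56 with library sizes alone without library 3. The 40 were 103 by DESeq2 without library 3, 85 by the likelihood ratio test, 74 by a robust fit, 61 without libraries 2 and 3, 11 without libraries 1 and 3, 87 with RLE factors without library 3 and 118 with library sizes alone without library 3. The 7 HIF target genes with a more negative response were 12 by DESeq2 without library 3, by the likelihood ratio test and by a robust fit, 11 without libraries 2 and 3, 1 without libraries 1 and 3, and 13 with RLE factors or library sizes alone without library 3. The cause of these shifts was not tested.

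Leaving out 1 library at a time gave, with onametostat, 29 to 76 higher and 25 to 50 lower DEGs, 350 to 1265 higher and 236 to 1020 lower genes by adjusted p, and 6 to 20 lower HIF target genes, the lowest of each without library 1 of onametostat in hypoxia. With DMSO these were 76 to 104 and 28 to 48 DEGs, and 1385 to 2402 and 1311 to 2411 genes by adjusted p. For the difference they were 0 to 1 and 0 to 5 DEGs, 0 to 97 and 1 to 86 genes by adjusted p, and 1 to 13 HIF target genes.

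The labels number the libraries of each group as experiments. Same-numbered onametostat libraries in hypoxia and normoxia deviated from their group means with correlations of 0.072, -0.077 and -0.041. For same-numbered DMSO libraries these were 0.027, 0.046 and 0.042, and for differently numbered ones they lay between -0.045 and 0.0056. Deviations from a mean of 3 libraries depend on each other, and library 3 is shallow, so these values cannot decide whether experiments were paired. The libraries were not treated as pairs in the main fit. With a replicate block there were 49 higher and 44 lower DEGs with onametostat (52 and 43 without library 3), 1051 and 875 genes by adjusted p (1272 and 1044), and 19 lower HIF target genes (23). With the block and without library 3, the difference gave 129 and 116 genes by adjusted p and 6 lower DEGs, and the HIF target genes with a more negative response were 12 with the block and 17 without library 3.

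RPL4P5, between -0.73 and 12.04 with 1 library left out, reversed to -0.73 without library 3, -0.81 with the block, -0.76 by DESeq2, -0.73 with RLE factors and -0.74 with library sizes alone (all without library 3), -0.53 by voom, -0.50 without libraries 2 and 3 and -1.51 without libraries 1 and 3. NUDC, between -0.077 and 3.46 with 1 library left out, reversed to -0.077 without library 3, -0.075 with the block, -0.079 by DESeq2, -0.077 with RLE factors and -0.088 with library sizes alone (all without library 3), -0.11 without libraries 2 and 3 and -0.036 without libraries 1 and 3. Leaving out libraries 2 and 3 was planned for the comparison with onametostat. Leaving out libraries 1 and 3, applying either to the other comparisons, and combining a scaling with leaving out library 3 were chosen after seeing the data. Leaving out 2 libraries left 1 of onametostat in hypoxia, which was assumed to vary like the other groups. At 403279 counts, library 3 limits what can be shown of genes under 8.07 CPM.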
